A study of Mus musculus with 5 samples.

Results

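Nodal, growth differentiation factor 3 (Gdf3) and fibroblast growth factor 4 (Fgf4) are secreted ligands, Tdgf1 (also called Cripto) is a co-receptor, and Lefty1 and Lefty2 are secreted inhibitors. These 6 genes were chosen by name, with earlier results of these data known, as the Nodal and FGF signals of mouse embryonic stem (ES) cells. They were taken out of 15597 genes with a row in at least 1 of the 5 count tables, and 5 of the 6 had a row. Nodal had none and was counted as 0 reads, and the sources used here do not say whether it was among the features counted.

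Single cells of 3 types were sorted into 5 plates of 96 wells, with a different barcode in each well, and the same 96 barcodes served every plate. The ES group was 3 plates of ES R1, a mouse ES cell line labelled as spheres derived from ES cells. The other groups were 1 plate each of Neuro2A, a mouse neuroblastoma line, and of mouse embryonic fibroblasts (MEF), primary cells that can be a mixture. No treatment or genetic change was named for any group, Neuro2A and MEF shared a serum medium, and the sources used here give no strain or embryonic age for the MEF. The design states 436 cells, and 431 of 480 wells had at least 1000 gene reads and were kept, which left 93, 66 and 94 wells for the ES plates, 86 for Neuro2A and 92 for MEF.

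Depth differed between plates. The kept wells held 11432543, 262517 and 2134248 gene reads in the 3 ES plates, against 3155092 for Neuro2A and 2930884 for MEF. In ES replicate 2 the median well had 2520.5 gene reads, 1 well held 25.9% of the gene reads, and repeats took 82.44% of all reads, against 23.02% to 39.99% in the other plates. ES identity was checked with 10 markers (Pou5f1, Nanog, Sox2 and others), of which 9, 10 and 9 had reads in the ES plates, with summed levels of 8318, 5036 and 8928 reads per 1000000 gene reads (CPM). The sums were 20.92 CPM in Neuro2A and 66.53 CPM in MEF, where Pou5f1 and Nanog were at 0. The list of 10 fibroblast markers summed to 23110 CPM in MEF, with reads of all 10, and to 2979 CPM in ES replicate 3, also with reads of all 10. In ES replicates 1 and 2 it summed to 0.612 and 137.1 CPM, with 1 and 7 of the 10 read. The 10 neuroblastoma markers summed to 1357 CPM in Neuro2A, with 9 read, and to 123.5 CPM in MEF, with 8 read. For 199 genes at 100 CPM or more in MEF and at least 10 times every plate but ES replicate 3, the reads in ES replicate 3 were a median of 10.8% of those in MEF. For 134 genes chosen the same way from Neuro2A, the reads in MEF were a median of 9.45% of those in Neuro2A. Fits with each of these sets of reads subtracted are given with the other settings below. The source of the reads was not tested. The 6 genes had 2 reads in all in the MEF and Neuro2A plates, both of Tdgf1 in MEF.

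As background, Nodal and Gdf3 belong to the TGF-beta family and bind activin receptors, and both need an EGF-CFC co-receptor such as Tdgf1. Bound receptors phosphorylate Smad2 and Smad3, which enter the nucleus with Smad4 and partners such as Foxh1. Lefty1 and Lefty2 are themselves targets of this pathway and block it, which makes a negative feedback loop. Fgf4 is secreted by ES cells, acts through FGF receptors and the ERK kinase cascade, and is known to prime ES cells for leaving self-renewal. Fgf4 is also a textbook target of Oct4 (Pou5f1) and Sox2, through an enhancer downstream of the coding sequence.

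The barcode of this assay is added where reverse transcription reaches the 5′ end of an mRNA, so the window around the start site is the stretch from which these reads begin. Promoter windows of 300 bases, 250 before and 50 after the start, were read for 3 of the 6 genes from RefSeq (GRCm38.p6), and are shown because the same windows were searched for motifs of the pathway. Each is 5′ to 3′ on the gene's strand, and capitals mark the only motif matches.
Fgf4: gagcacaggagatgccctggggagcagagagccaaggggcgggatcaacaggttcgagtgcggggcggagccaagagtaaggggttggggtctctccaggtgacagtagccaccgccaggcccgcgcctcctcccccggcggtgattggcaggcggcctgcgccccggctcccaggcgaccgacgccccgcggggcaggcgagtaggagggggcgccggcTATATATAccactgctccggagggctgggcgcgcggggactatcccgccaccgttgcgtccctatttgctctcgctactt
Tdgf1: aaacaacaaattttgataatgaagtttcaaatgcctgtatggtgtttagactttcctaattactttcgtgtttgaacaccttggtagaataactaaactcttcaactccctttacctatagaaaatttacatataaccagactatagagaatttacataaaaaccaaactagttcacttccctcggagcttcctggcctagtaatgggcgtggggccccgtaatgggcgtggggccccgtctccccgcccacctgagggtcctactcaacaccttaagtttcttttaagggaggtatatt
Nodal: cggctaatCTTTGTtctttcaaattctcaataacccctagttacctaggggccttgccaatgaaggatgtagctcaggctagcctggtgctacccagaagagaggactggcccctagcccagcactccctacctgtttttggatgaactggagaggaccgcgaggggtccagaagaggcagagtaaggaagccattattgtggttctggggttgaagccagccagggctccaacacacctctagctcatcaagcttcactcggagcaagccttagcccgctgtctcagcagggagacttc
The Fgf4 window lies at chr7:144861136-144861435 on the plus strand, the Tdgf1 window at chr9:110946109-110946408 on the minus strand and the Nodal window at chr10:61417722-61418021 on the plus strand. The Fgf4 window was rich in G and C (69.7%, with 28 CpG), at percentile 89.9 of 32851 windows whose median was 52.7% with 7 CpG. Tdgf1 was at 41.7% with 7 CpG (percentile 13.4), and Nodal at 54.0% with 5 CpG (percentile 53.5). Both strands were searched for the FOXH1 motifs AATCCACA and AATACACA, the SMAD motifs GTCTAG and CAGACA, the OCT4 octamer ATGCAAAT and the SOX motifs ACAATG and ACAAAG. These are held by 0.855%, 0.98%, 8.37%, 21.0%, 1.74%, 12.6% and 18.7% of all windows. The only match was ACAAAG, on the other strand of the Nodal window, from base -242. The TATA motifs TATAAA and TATATA, added after these were searched, are in 13.6% and 5.67% of windows, and TATATA matched the Fgf4 window from bases -30 and -28, which overlap. No motif searched matched the Tdgf1 window. A match is a run of letters and no evidence of binding.

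Fgf4, the ligand whose level varied least between ES plates, was read in all 3 of them and in no Neuro2A or MEF well. It had 2746 reads (240.2 CPM) in ES replicate 1, 46 reads (175.2 CPM) in ES replicate 2 and 328 reads (153.7 CPM) in ES replicate 3. The groups did not overlap, and the highest ES plate was 1.563 times the lowest. The ES mean was 189.7 ± 45.03 CPM (SD, n = 3), at least 199.5-fold higher than Neuro2A and at least 185.3-fold higher than MEF, with 0 reads set to a floor of 3 reads per plate (0.951 and 1.02 CPM). In the edgeR quasi-likelihood fit of all genes the log2 fold change was 12.40 ± 1.96 (SE) against MEF (adjusted p = 0.472) and 12.40 ± 1.88 against Neuro2A (adjusted p = 0.177), so it did not pass at 0.05. Fitted folds against 0 reads, and the SE worked back from them, depend on the prior count and are no bounds.

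Gdf3, a ligand made by pluripotent cells, was also read in every ES plate and in no other. It had 465 reads (40.67 CPM) in ES replicate 1, 16 (60.95 CPM) in ES replicate 2 and 309 (144.8 CPM) in ES replicate 3. ES replicate 3 was high and the highest plate was 3.56 times the lowest, and in ES replicate 1 a single well held 358 of the 465 reads (76.99%). Without that well, which was left out after its value was seen, ES replicate 1 was at 9.723 CPM, still above the floors of the other types. The ES mean was 82.13 ± 55.19 CPM (SD, n = 3), at least 86.4-fold higher than Neuro2A and at least 80.2-fold higher than MEF. The edgeR log2 fold change was 11.24 ± 2.95 (SE) against MEF (adjusted p = 0.493) and 11.24 ± 2.82 against Neuro2A (adjusted p = 0.296).

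Nodal, the founding ligand of the pathway, had 0 reads in all 5 plates. If it was among the features counted, 3 reads would be 0.262 CPM in ES replicate 1, 11.4 CPM in ES replicate 2 and 1.41 CPM in ES replicate 3. A level under those limits was not detectable at this depth. The limits cover counting error only and reads include PCR copies, so a higher level could also go unread. ES replicate 1 had a median of 1521 genes per well at 101130 gene reads, against 2087 at 17003 in ES replicate 3. It had 0 reads of Skil, which was at 411.4 and 355.2 CPM in ES replicates 2 and 3. No comparison was made for Nodal.

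Tdgf1, the co-receptor, had 8929 reads (781.0 CPM), 301 reads (1147 CPM) and 1098 reads (514.5 CPM) in ES replicates 1, 2 and 3. Neuro2A had 0 reads and MEF had 2 (0.682 CPM). All ES plates stood far above both other types, with a 2.229-fold range among themselves. The ES mean was 814.0 ± 317.4 CPM (SD, n = 3), 1193 times the MEF value (counting interval 330.2 to 9850) and at least 856.1-fold higher than Neuro2A. Both MEF reads lay in 1 well of 1358 gene reads, whose barcode is that of the ES replicate 1 well with the most Tdgf1 reads (1340); their origin was not tested. Mouse also has pseudogenes of Tdgf1, and how reads that match them were assigned is not stated. The edgeR log2 fold change was 9.39 ± 1.23 (SE) against MEF (adjusted p = 0.435) and 14.45 ± 1.61 against Neuro2A (adjusted p = 0.177).

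Lefty2, an inhibitor, was read in every ES plate and in neither other type. It had 4514 reads (394.8 CPM), 100 reads (380.9 CPM) and 294 reads (137.8 CPM) in ES replicates 1, 2 and 3. ES replicates 1 and 2 lay close together and ES replicate 3 lower, a 2.866-fold range. The ES mean was 304.5 ± 144.6 CPM (SD, n = 3), at least 320.3-fold higher than Neuro2A and at least 297.5-fold higher than MEF. The edgeR log2 fold change was 13.04 ± 2.01 (SE) against MEF (adjusted p = 0.472) and 13.04 ± 1.94 against Neuro2A (adjusted p = 0.177).

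Lefty1, its near-identical neighbour on the chromosome, had 619 reads (54.14 CPM) in ES replicate 1, 0 in ES replicate 2 and 39 (18.27 CPM) in ES replicate 3. ES replicate 2 therefore overlapped Neuro2A and MEF, both at 0, although 3 reads there would already be 11.4 CPM. The ES mean was 24.14 ± 27.54 CPM (SD, n = 3), at least 25.4-fold higher than Neuro2A and at least 23.6-fold higher than MEF, and its spread exceeded it. The edgeR log2 fold change was 9.53 ± 5.24 (SE) against MEF (adjusted p = 0.594) and 9.53 ± 5.00 against Neuro2A (adjusted p = 0.487). How reads shared by both Lefty genes were assigned is not stated in the labels, so the split between them is uncertain.

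**Figure D1:**
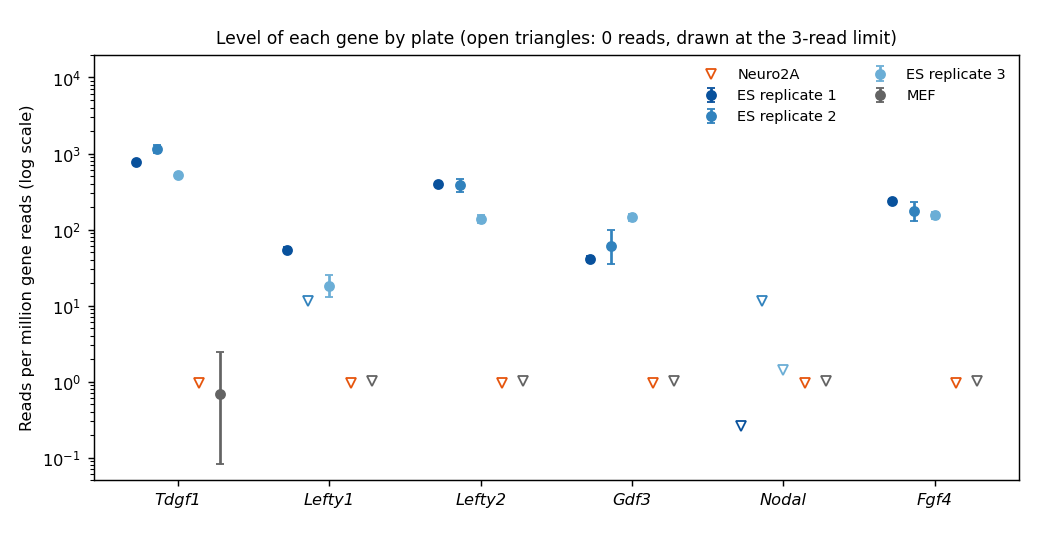
Level of each gene in each plate, in CPM on a log axis, with exact 95% Poisson intervals; open triangles mark 0 reads and are drawn at the 3-read limit of the plate. Tdgf1, Lefty2, Gdf3 and Fgf4 sit between 40.67 and 1147 CPM in the ES plates, and every Neuro2A and MEF point but the Tdgf1 value of MEF (0.682 CPM) is a triangle.

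No gene of the 12271 tested passed an adjusted p of 0.05 in edgeR in either comparison (0.0% against Neuro2A and 0.0% against MEF), and none of the 6 did. At an unadjusted p under 0.05, Tdgf1, Lefty2, Gdf3 and Fgf4 were higher in ES in both, beside 8.38% of all genes against Neuro2A and 4.21% against MEF. DESeq2 called the same 4 genes in both comparisons. Beside them, it called 11.8% of the 9178 genes given an adjusted p higher in ES against Neuro2A, and 5.37% of 7751 against MEF. The DESeq2 adjusted p was 4.66e-07 and 2.06e-09 for Tdgf1 (against Neuro2A and MEF), 2.99e-05 and 1.08e-04 for Lefty2, 7.85e-05 and 3.37e-04 for Fgf4, and 0.0034 and 0.00992 for Gdf3. For Lefty1 it was 0.196 against Neuro2A, and DESeq2 gave none against MEF. Every ES plate was above the other type for 4 of the 6 in both comparisons, beside 30.9% of all genes against Neuro2A and 31.5% against MEF. Lefty1, Lefty2, Gdf3 and Fgf4 had 0 reads in Neuro2A and MEF. They entered the fits through the ES plates alone and could only come out higher there. The 6 genes were also chosen with earlier results of these data known, so the shares of all genes are no test of them. Without ES replicate 1, edgeR called 4 of the 6 in each comparison, among 1438 genes called against Neuro2A and 645 against MEF. With all plates, limma-voom called none of the 6. The comparisons share the ES plates, the spread came from those 3 plates alone, the single Neuro2A and MEF plates were assumed to vary like them, and a difference between types cannot be told apart from one between plates. The labels do not say whether different cultures gave the ES plates, so each p-value rests on plate-to-plate spread that may be technical.

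A plate sum cannot separate fewer cells with a transcript from less RNA per cell, so wells were counted as well, as a description, since wells of a plate are not replicates. Tdgf1 was read in 63 of 93 wells of ES replicate 1 (67.74%, exact interval 57.25 to 77.07), 52 of 66 of ES replicate 2 (78.79%) and 66 of 94 of ES replicate 3 (70.21%). In the other types, where Pou5f1 and Nanog were at 0, it was read in 0 of 86 Neuro2A wells, which allows a share of up to 3.488% by 3 counts of 86 (exact upper bound 4.199%), and in 1 of 92 MEF wells (1.087%), at median depths of 26278 and 12749 gene reads. The ES medians were 101130, 2520.5 and 17003 gene reads, so shares were also taken after each well was thinned to 1000 gene reads, with no well left out. Tdgf1 was then read in 32.26%, 59.09% and 28.72% of wells, which was the order of plates by CPM.

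The other genes were read in fewer wells. Fgf4 had reads in 39 (41.94%), 22 (33.33%) and 49 (52.13%) wells of ES replicates 1, 2 and 3, and in 9.677%, 16.67% and 14.89% after thinning. Lefty2 had reads in 51 (54.84%), 19 (28.79%) and 34 (36.17%), and in 12.9%, 22.73% and 10.64% after thinning. For Fgf4 and Lefty2 the order of plates after thinning was not the order of the CPM. Gdf3 had reads in 17 (18.28%), 6 (9.091%) and 44 (46.81%). After thinning it was read in 1.075% (0.0272 to 5.846), 6.061% (1.676 to 14.8) and 11.7% (5.989 to 19.97), in the order of its CPM. The thinned shares come from 1 draw of reads, and the plates were not tested against each other. No order of plates is therefore read from them for any gene. Lefty1 was read in 18 (19.35%), 0 and 12 (12.77%), and in 5.376%, 0 and 2.128% after thinning. No Neuro2A or MEF well had a read of Fgf4, Lefty2, Gdf3 or Lefty1. Wells with a read of a gene were also deeper, and the share was higher in the wells whose barcode ends in G: in ES replicate 3 all 24 such wells, or 100%, had Fgf4 against 35.71% of the others. After thinning those were 25.0% and 11.43%, but the order turned for others, such as Fgf4 in ES replicate 1 (4.167% against 11.59%) and Tdgf1 in ES replicate 3 (25.0% against 30.0%).

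**Figure D2:**
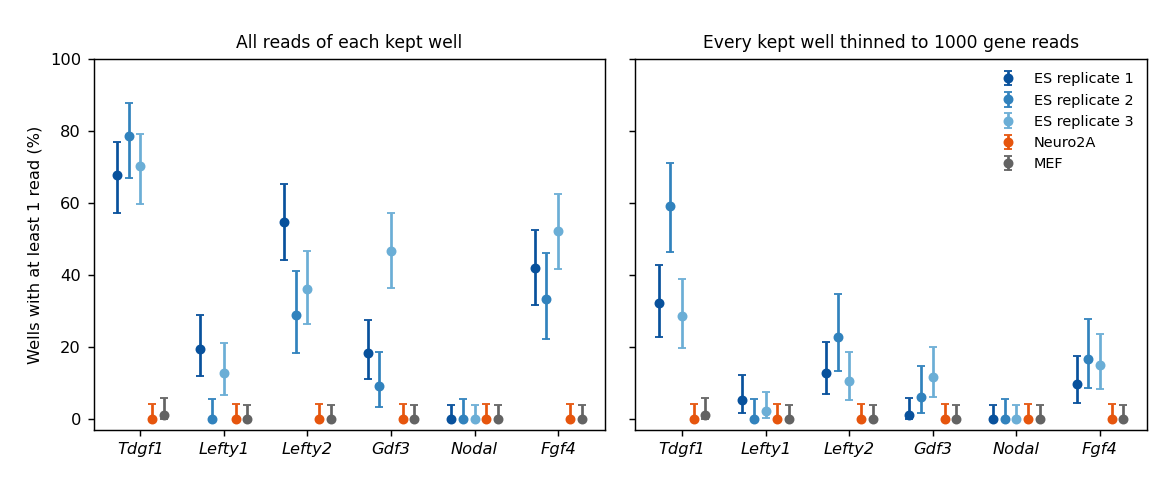
Share of kept wells with at least 1 read of each gene, in percent with exact 95% binomial intervals, from all reads (left) and with every well thinned to 1000 gene reads (right). Tdgf1 is read in 67.74%, 78.79% and 70.21% of wells of the ES plates on the left and 32.26%, 59.09% and 28.72% on the right, while Neuro2A is at 0 and MEF at 1.087% in both.

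Among the wells with reads the levels were spread over orders of magnitude. The median Tdgf1 level of such wells was 523.9, 1128 and 413.8 CPM in ES replicates 1, 2 and 3, and the highest well of ES replicate 1 had 5850 CPM. For Lefty2 the medians were 94.47, 840.3 and 218.4 CPM, with a maximum of 8064 CPM in ES replicate 1, where the top well alone had 1183 of the 4514 reads. For Fgf4 they were 130, 450.4 and 163.8 CPM, with a maximum of 3361 CPM in ES replicate 1. A well of ES replicate 2 with 1 read has a high CPM because its depth is low, so these medians are not comparable between plates. In ES replicate 1, 1 well held 43.13% of the Lefty1 reads and the plate was at 31.11 CPM without it. The same share was 26.21% for Lefty2 (302.7 CPM without), 20.76% for Fgf4 (198.3 CPM without) and 15.01% for Tdgf1 (685.3 CPM without).

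**Figure D3:**
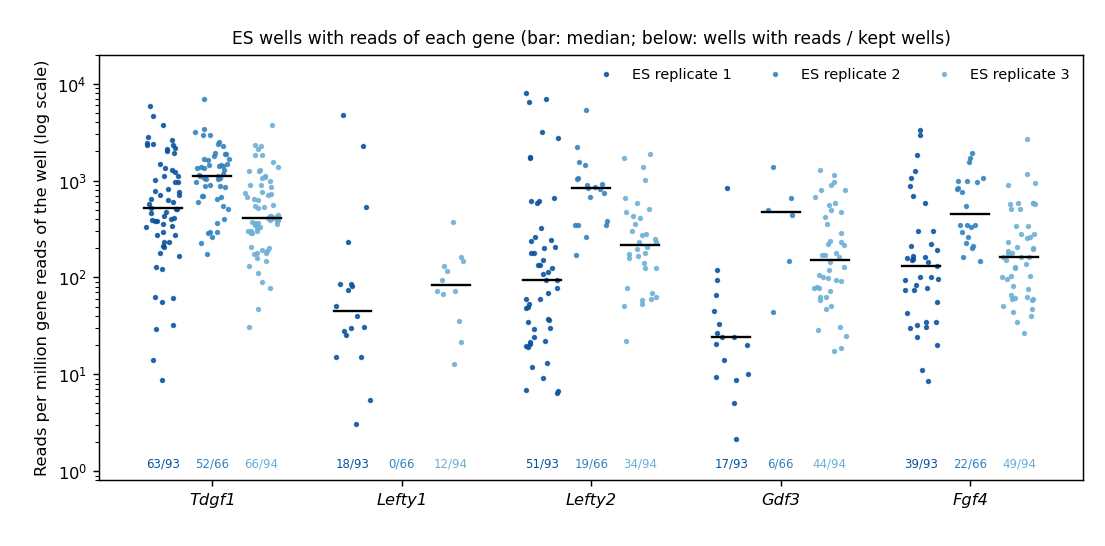
Each point is 1 ES well with reads of the gene, in CPM of that well on a log axis; bars are medians of those wells, and the fractions give wells with reads over kept wells. Tdgf1 has points in 63 of 93, 52 of 66 and 66 of 94 wells, and the single high Gdf3 well of ES replicate 1 stands at 836.1 CPM.

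Variation between wells was set against genes of like mean level by the residual of the squared coefficient of variation from its trend. Tdgf1 was among the more even genes in ES replicates 1 and 2 (percentiles 8.85 and 11.3 of 5935 and 3679 genes) and at 33.6 of 7186 in ES replicate 3. Fgf4 was at 25.8, 11.1 and 39.2 and Lefty2 at 59.9, 64.6 and 45.3. Lefty1 was at 83.3 and 39.9 in ES replicates 1 and 3, and Gdf3 at 72.3 and 18.9, so their places differed between plates.

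Some pairs of genes were read in the same wells more often than the product of their shares gives. All 12 wells of ES replicate 3 with Lefty1 also had Lefty2, where the product of the shares gives 4.34 (r = 0.517 over 94 wells), and 16 of 18 did in ES replicate 1, where it gives 9.871 (r = 0.372 over 93 wells). After thinning the joint counts were 0 and 1, beside products of 0.213 and 0.645. In ES replicate 1, Lefty1 and Fgf4 were both read in 15 wells beside 7.548, and Gdf3 and Fgf4 in 14 beside 7.129, and after thinning in none. Lefty2 and Fgf4 were both read in 29 wells of ES replicate 3 beside a product of 17.72, and in 2 beside 1.489 after thinning. Tdgf1 and Lefty2 were both read in 40, 15 and 31 wells beside 34.55, 14.97 and 23.87. The wells share library and depth, and such weak correlations in sparse counts are no finding. By number of the 5 genes read, ES replicate 1 had 14 wells with none and 6 with all 5, ES replicate 2 had 7 and 0, and ES replicate 3 had 13 and 9. After thinning, no well of any plate had more than 3.

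**Figure D4:**
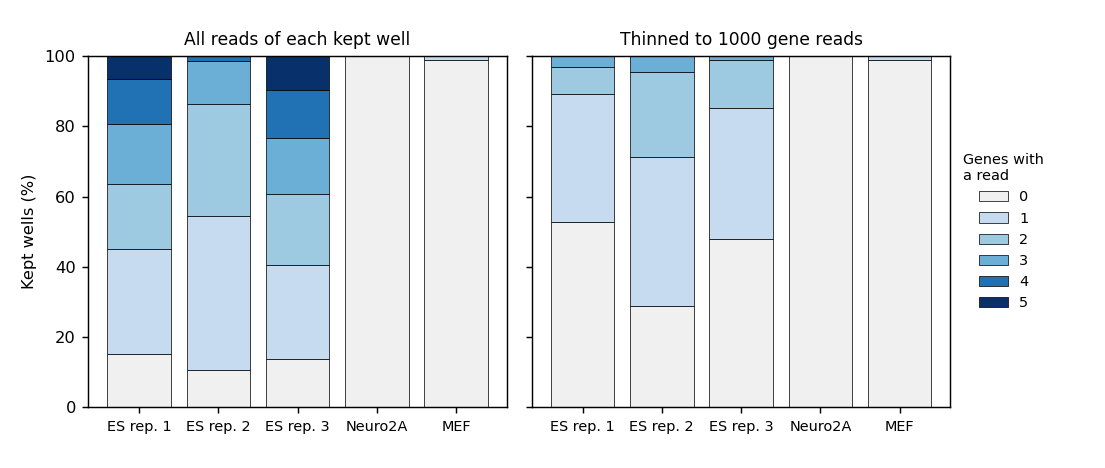
Share of kept wells, in percent, by how many of Tdgf1, Lefty1, Lefty2, Gdf3 and Fgf4 had at least 1 read, from all reads (left) and after thinning to 1000 gene reads (right). All 86 Neuro2A wells and 91 of 92 MEF wells had none, against 14 of 93, 7 of 66 and 13 of 94 ES wells.

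The genes whose levels over ES wells were most like those of each gene were taken from 1429 genes read in at least 20% of the wells of every ES plate, by the mean Pearson r of log2(CPM + 1) over the 3 plates. The nearest to Lefty2 were Ndufa1 (0.359) and Sirt1 (0.349), beside a median of 0.168 over all genes of the pool. Mphosph10 (0.339) and the unannotated EG243642 (0.364) were nearest to Gdf3, beside a median of 0.157. For Tdgf1 they were EG229746 (0.387) and LOC672195 (0.377), and for Fgf4 LOC665367 (0.358) and 4930517K11Rik (0.347), beside medians of 0.177 and 0.178. Lefty1 had no value, having 0 reads in ES replicate 2. The nearest 2 of 1429 genes exceed the median by how they were picked, and wells were not thinned to a common depth. Between ES replicates 1, 2 and 3, r was 0.558, 0.419 and 0.155 for LOC672195 with Tdgf1, but 0.363, 0.312 and 0.366 for 4930517K11Rik with Fgf4. These likenesses were not tested and are no finding.

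The rest of both pathways was read from lists of 46 genes for Nodal and 63 for FGF, of which 93 of 109 had a row and 82 were tested. The Nodal list also holds genes of other TGF-beta family branches, such as Bmp4, Tgfb2 and Tgfbr1. Counts over the lists are therefore not of Nodal and FGF signalling alone. edgeR called none of the 82. Against Neuro2A, 27 had every ES plate above and 21 every ES plate below, where 30.9% of all genes were above and 25.6% below. At an unadjusted p under 0.05, 12 were higher and 3 lower (8.38% and 4.05% of all genes). DESeq2 called 13 higher and 2 lower, beside 11.8% and 1.78% of the 9178 genes that it gave an adjusted p. Not all of the 82 had one. The median log2 fold change was 1.81, beside 0.91 for all genes tested. Against MEF, 16 had every ES plate above and 43 below, where 31.5% of all genes were above and 28.5% below. At an unadjusted p under 0.05, 3 were higher and 9 lower (4.21% and 4.17% of all genes). DESeq2 called 3 higher and 2 lower, beside 5.37% and 1.16% of the 7751 genes with an adjusted p, which not all of the 82 had. The median was -1.52 beside -0.08.

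Among the other ligands of the Nodal list, Bmp4, a TGF-beta family ligand that supports ES cell self-renewal, was at 91.67, 102.9 and 185.1 CPM in the ES plates, 0.317 CPM in Neuro2A and 95.88 CPM in MEF. It was higher in ES than in Neuro2A in DESeq2 (adjusted p = 2.69e-04) and overlapped MEF. Inhba, a subunit of activin A, which signals through the same receptors as Nodal, was at 0, 3.809 and 132.6 CPM in ES, 2.219 CPM in Neuro2A and 1028 CPM in MEF. ES replicate 3, the ES plate with the highest sum of fibroblast markers, held nearly all of the ES reads of Inhba. The source of those reads was not tested. Tgfb2 was at 0, 15.24 and 3.748 CPM in ES, below both Neuro2A (130.3 CPM) and MEF (68.24 CPM).

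Tgfbr1, the type I receptor of TGF-beta, was at 46.01, 26.66 and 36.08 CPM in ES against 330.6 CPM in Neuro2A (DESeq2 adjusted p = 0.0129) and 116.0 CPM in MEF. Every ES plate was below both. The activin type I receptors were added after their values were seen: Acvr1b had 1 read in ES replicate 3 and none in any other plate, and Acvr1c had no row. Acvr2b, a type II receptor of Nodal, was at 2.624, 57.14 and 2.343 CPM in ES, 0 in Neuro2A and 4.094 CPM in MEF. Pcsk6, a convertase that cleaves the Nodal precursor, was at 171.4, 190.5 and 38.42 CPM in ES, 90.65 CPM in Neuro2A and 4.094 CPM in MEF, and was higher in ES than in MEF in DESeq2 (adjusted p = 0.0308). Furin, another such convertase, was at 5.598, 38.09 and 34.67 CPM in ES, below Neuro2A (77.97 CPM) and MEF (120.8 CPM).

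Smad4, the shared Smad, was at 262.8, 114.3 and 142.4 CPM in ES, below the 610.4 CPM of Neuro2A and around the 211.5 CPM of MEF. Smad2, Smad3 and Foxh1 were added after their values were seen. Smad2 was at 0, 15.24 and 49.67 CPM in ES, 63.71 CPM in Neuro2A and 61.07 CPM in MEF. Smad3 was at 0, 0 and 11.25 CPM in ES, 4.754 CPM in Neuro2A and 56.64 CPM in MEF. Foxh1 had 108, 5 and 7 reads in the ES plates and 0 in Neuro2A and MEF. Tgif1, a repressor of Smad targets, was at 472.6, 175.2 and 228.2 CPM in ES, above Neuro2A (23.14 CPM, DESeq2 adjusted p = 0.0119) and above MEF (142.6 CPM) without passing there. Skil, another repressor, had 0 reads in ES replicate 1 but 411.4 and 355.2 CPM in ES replicates 2 and 3, and was at 1036 CPM in Neuro2A and 689.9 CPM in MEF. Of the targets of Nodal in mesendoderm, T and Lhx1 had 5 and 6 reads in ES replicate 2, the shallowest plate (19.05 and 22.86 CPM), and none in the other ES plates. Eomes had 9 reads in ES replicate 3 alone (4.217 CPM), and Gsc, Mixl1 and Foxa2 had no row.

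For FGF, Fgf1, Fgf7 and Fgf18 were the listed ligands with the highest mean CPM over the plates, and none of these separated ES from both other types. Fgf17 (297 reads, 25.98 CPM) and Fgf15 (160 reads, 14.0 CPM), added after their values were seen, were read in ES replicate 1 and in no other plate. Fgf7 was at 0, 91.42 and 12.18 CPM in ES and 37.87 CPM in MEF. The receptor Fgfr1 was at 145.6, 79.99 and 552.4 CPM in ES, 403.2 CPM in Neuro2A and 462.7 CPM in MEF, so the groups overlapped. Sdc4, a heparan sulfate proteoglycan that can serve FGF receptors as a co-receptor, was at 157.4, 342.8 and 436.7 CPM in ES, 0 in Neuro2A (DESeq2 adjusted p = 1.4e-05) and 457.9 CPM in MEF.

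In the ERK cascade, Map2k1, the kinase MEK1, was at 271.8, 160.0 and 199.6 CPM in ES, 3.169 CPM in Neuro2A (DESeq2 adjusted p = 1e-05) and 59.71 CPM in MEF. The adaptor Gab1, which was named after its values were seen, was at 82.83, 262.8 and 119.0 CPM in ES, 0.317 CPM in Neuro2A and 0.341 CPM in MEF. DESeq2 called it higher in ES in both comparisons (adjusted p = 3.19e-04 and 0.00133). Dusp6, a phosphatase that acts on ERK and is induced by it, was at 207.0, 160.0 and 300.3 CPM in ES, below Neuro2A (633.3 CPM) and MEF (719.2 CPM). Spry1, a feedback inhibitor, was at 40.41, 45.71 and 36.08 CPM in ES, above Neuro2A (22.5 CPM) and MEF (17.74 CPM), a difference that passed no test. Of the ERK target factors, Egr1 was at 44.17, 205.7 and 333.6 CPM in ES, 0.951 CPM in Neuro2A (DESeq2 adjusted p = 8.2e-05) and 366.8 CPM in MEF. Myc was at 48.02, 87.61 and 138.2 CPM in ES, below Neuro2A (790.8 CPM, DESeq2 adjusted p = 0.00864) and MEF (406.4 CPM).

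**Figure D5:**
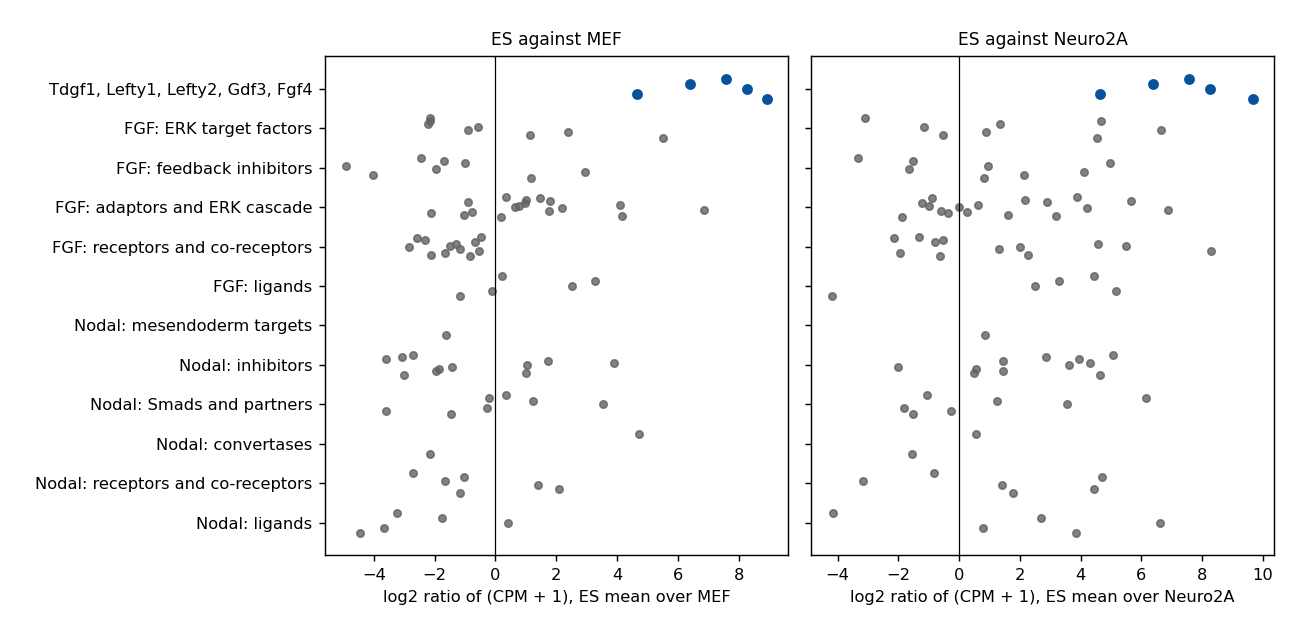
Each point is 1 gene, placed by the log2 ratio of CPM + 1 of the ES mean over MEF (left) or Neuro2A (right), in rows by role, with Tdgf1, Lefty1, Lefty2, Gdf3 and Fgf4 on top. Those 5 lie to the right of 0 in both panels. Of 82 tested pathway genes, 16 had every ES plate above MEF and 43 below (31.5% and 28.5% of all genes). Against Neuro2A the counts were 27 and 21 (30.9% and 25.6% of all genes).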

How the data were processed

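Single cells of 3 types were profiled with a tagged reverse transcription assay on 5 plates. The authors deposited raw counts of reads per feature and barcode, per the readme with the files. The submitters' processing notes name Bowtie as a tool; the version, build and annotation were not given in the sources used here. No molecular identifiers are named, so counts include PCR copies, and intervals and floors cover counting error only.

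Repeats and mitochondrial genes were left out of library sizes. Wells under 1000 gene reads were left out, the others were summed per plate, and CPM is reads per 1000000 gene reads. The 5 sums were fitted over 12271 genes with edgeR 4.0.16 (glmQLFit and glmQLFTest, TMM, filterByExpr, Benjamini-Hochberg at 0.05), with 2 residual degrees of freedom and a biological coefficient of variation of 122%. Each edgeR SE was worked back as the absolute log2 fold change over the square root of its F statistic, and was not estimated by the fit. DESeq2 1.42.0 and limma-voom (limma 3.58.1) were alternatives. The code was tested on simulated data less dispersed than these, which does not show how the fits perform here. Where a plate had 0 reads, folds were computed against 3 reads in that plate. Shares have exact 95% Clopper-Pearson intervals.

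The 6 genes and all lists were chosen with earlier results of these data known. Named pathway genes were at most 3 per role by mean CPM over the plates, not all of which are described, plus any called by edgeR. One listed gene is not reported here by name.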

Additional observations from a re-analysis of the deposited data

Results flagged for a closer look

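Wells with under 1000 gene reads entered no comparison. In the 30 such wells of ES replicate 2, with 14551 gene reads, Tdgf1 had 22 reads in 5 wells (1512 CPM, exact Poisson interval 947.5 to 2289), which drew attention as a signal outside the wells analysed. The 14 such wells of Neuro2A and MEF together had 0 Tdgf1 reads among 7243 gene reads, where 3 reads would be 414.2 CPM. Pooling those plates was chosen after the values were seen. Set against MEF alone, with 4 wells and 2049 gene reads, the limit is 1464 CPM and the lower bound of the interval does not exceed it.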

How the results depend on the processing

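No paired analysis was possible because the labels give no replicate numbers (the plates are numbered in accession order) and Neuro2A and MEF have 1 plate each. Of the 6 genes, 0 were called by edgeR in either comparison. Thinning each well to 1000 gene reads called 2 against MEF (Tdgf1, Lefty2) and 3 against Neuro2A (Tdgf1, Lefty2, Fgf4), with 128 and 209 genes in all. No filter on low counts called 1 (Tdgf1) and 3 (the same 3 as with thinning), with 9 and 82 in all. DESeq2 called 4 and 4, with 506 and 1249 in all, and limma-voom called 492 genes against MEF, none of the 6. Leaving out 1 ES plate gave 0 to 4 of the 6 in each comparison, and 0 to 645 genes against MEF and 0 to 1438 against Neuro2A. The highest values were those without ES replicate 1, from fits with 1 residual degree of freedom. Since the other types had 2 reads of these genes at most, the log2 fold changes could hardly reverse, but their size moved: against MEF, from 5.75 to 14.56 for Tdgf1 (adjusted p 2.06e-09 to 0.795), 7.61 to 13.60 for Lefty2, 7.28 to 12.90 for Fgf4 and 5.93 to 11.79 for Gdf3. Pathway genes with every ES plate above MEF were 16, and 8 after thinning or 9 with repeats kept. The cause was not tested. With the median share of MEF reads subtracted from ES replicate 3, edgeR called 0 of the 6 genes in either comparison. Pathway genes with every ES plate above and below were then 16 and 43 against MEF, and 25 and 25 against Neuro2A. With that of Neuro2A reads subtracted from MEF it also called 0, and the counts were 18 and 44, and 27 and 21. Of 15 thinned shares, 12 moved beyond their interval with all reads and 10 with a minimum of 2 reads. The level without the top well, and TMM-scaled CPM, were alternatives chosen after seeing the data. The depth of ES replicate 2 limits Lefty1 and Nodal most, at 11.4 CPM for 3 reads.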

Other observations

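In ES cells the markers of neighbouring states were read unevenly. Fgf5, a marker of the primed epiblast, the later pluripotent state, had 0 reads in every ES plate. Other markers of that state were read in every ES plate: Dnmt3b at 867.4, 769.5 and 341.1 CPM, Otx2 at 70.59, 53.33 and 38.42 CPM and Wnt8a at 6.385, 114.3 and 3.28 CPM. Of 6 mesendoderm markers, 0, 2 and 1 had reads in the ES plates, with sums of 0, 41.9 and 4.217 CPM. Of 8 primitive endoderm markers, Sox17, Sox7, Foxa2 and Afp had no reads in any ES plate. The list summed to 55.81, 106.7 and 98.86 CPM in the ES plates against 416.3 CPM in MEF, but from different genes. Lama1 was at 55.81, 83.8 and 51.07 CPM in the ES plates and at 0 in MEF. Most of the MEF sum was Dab2 (364.05 CPM), which was at 0, 0 and 35.61 CPM in the ES plates. These sums were not tested.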
